A study of Mus musculus with 6 samples.

Results

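The MYC, MAX and MXD network is described here by 10 genes, Myc, Mycn, Max, Mxd1, Mxd3, Mxd4, Mxi1, Mnt, Mlx and Mlxip. They were taken as a family by symbol, matched to the Ensembl identifiers of the deposited table. The rule uses no measured value, but the family was picked with earlier results of these data known. All 10 were found among the 26128 genes listed, and all 10 passed the filter on low counts that left 14671 genes to test. RNA was sequenced from CD4-CD8- double negative T (DNT) cells, a small population of T cells with suppressive activity. The cells came from the spleens of adult C57BL/6 mice (the methods of the study add lymph nodes) and were made in vitro out of CD4+ T cells, with DBA/2 mature dendritic cells and IL-2, before a sort for CD3+NK1.1-CD4-CD8-. All 6 libraries were from cells stimulated with anti-CD3/CD28 beads for 48 h, 3 without IL-33 (control) and 3 with IL-33, an alarmin cytokine of the IL-1 family, at 50 ng/ml. No source used here says that replicates were separate mice, conversions or wells, so the p values measure only the spread between these libraries, which may be technical.

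The libraries held 20256342 to 22336050 counts. The 13 T cell identity genes were all tested and summed to 3850 to 4010 CPM in the control libraries and 3910 to 4060 CPM with IL-33, where CPM is counts per 1000000 counts of a library after TMM scaling. Single genes of this list did change. At an edgeR adjusted p under 0.05, 2 rose (Cd3g and Cd28) and 4 fell (Cd2, Cd5, Lat and Lck), where 13.6% of all tested genes rose and 13.9% fell. Of the genes of surface proteins that the sort removed, Cd4 was at a mean of 0.934 CPM in control libraries, but Cd8a, the CD8α chain, was at 535 to 561 CPM without IL-33 and at 393 to 410 CPM with it, so the RNA of the cells did not lack Cd8a. Cd8b1, the CD8β chain, moved the other way, from 9.69 ± 1.65 to 16.3 ± 2.07 CPM (SD, n = 3, edgeR adjusted p = 6.16e-08). Klrb1c, the gene of NK1.1, was at means of 33.5 and 25.6 CPM. Dendritic and myeloid markers summed to 99.2 to 103 CPM without IL-33 and 75.4 to 80.8 CPM with it, with Itgax alone at means of 54.6 and 26.0 CPM, while 6 of the 12, Flt3, Clec9a, Siglech, Csf1r, Lyz2 and Adgre1, were not listed or under the filter. H2-Ab1, an MHC class II gene, rose from 24.8 to 30.3 CPM (edgeR adjusted p = 0.00123) and Cd74, the invariant chain, fell from 5.66 to 3.78 CPM, and the median of the 6 tested was a log2 fold change of 0.08. The B cell markers summed to 4.79 to 5.7 CPM and 5.3 to 6.34 CPM, the mast cell and basophil markers to 39.4 to 43.3 CPM and 28.1 to 33.2 CPM, and the NK cell markers to 405 to 408 CPM and 373 to 393 CPM. Most of the NK cell sum was Eomes, at means of 373 and 358 CPM, and the only other NK cell marker tested was Klrb1c. Ncr1, with 0 to 5 counts in a library, and Klra8, with 1 to 6 counts, were under the filter. Clec9a, Ms4a1, Pax5 and Mcpt4 were not listed. The part of other cells in the results for the network was not tested. In bulk RNA fewer cells of a type and less RNA per cell cannot be told apart.

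The proteins of this network share a basic helix-loop-helix leucine zipper and bind DNA in pairs at the E-box CACGTG. MYC paired with MAX activates genes of growth, ribosome making and metabolism, and its induction is a hallmark of T cell activation. The MXD proteins, MXI1 and MNT compete for MAX and repress the same kind of site through SIN3 and histone deacetylases, and MXD proteins are known to take over when cells leave the cycle and differentiate. A parallel arm pairs MLX with MLXIP (MondoA), a sensor of glucose phosphates that activates Txnip and Arrdc4.

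Some genes of the network carry its own E-box before their start, and in Max it runs across the start. RefSeq promoter windows on GRCm38.p6, from 250 bases before to 50 after the start of a transcript, were at hand for 9 of the 10 genes (3 windows for Mxi1), and CACGTG, which reads the same on both strands, was in the windows of 4 of them, Max, Mxd4, Mnt and Mlx. Of all 27025 genes with a window 8.09% hold it. The stretches below show the E-box in capitals with 20 bases on each side, 5′ to 3′ on the strand of the gene, so that the promoters of members that rose, fell or did not pass the test can be set side by side. The first base of the E-box lay 3 bases before the start in Max (chr12:76962226-76962271, minus strand), 40 in Mlx (chr11:101087230-101087275, plus strand), 123 in Mnt (chr11:74830781-74830826, plus strand) and 219 in Mxd4 (chr5:34187904-34187949, minus strand).
Max: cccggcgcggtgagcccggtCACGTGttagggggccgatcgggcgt
Mlx: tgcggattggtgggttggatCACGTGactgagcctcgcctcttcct
Mnt: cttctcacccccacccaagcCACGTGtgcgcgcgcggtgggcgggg
Mxd4: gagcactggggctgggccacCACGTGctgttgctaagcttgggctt
The windows of Mxd1, Mxd3, Mxi1, Mlxip and Mycn hold no CACGTG, which says only that these letters are not in these windows. Of the 4 genes with it Mxd4 rose and Mnt fell with IL-33, and Max and Mlx did not pass the test, so the genes with the E-box did not share 1 direction.

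With IL-33 the network changed in its MXD and MondoA genes, while the messages of Myc, Mycn, Max and Mlx did not pass the test. Mxi1, Mxd1, Mxd4 and Mlxip rose, Mxd3 and Mnt fell. Thus 6 of the 10 genes had an adjusted p under 0.05 (quasi-likelihood test of edgeR, Benjamini-Hochberg over all genes tested), where 27.5% of all tested genes did, 13.6% higher and 13.9% lower. All 10 genes had a mean of at least 10 CPM, a limit set after their levels were seen, and of the 8839 genes at that level 37.1% were called. Mxi1 and Mxd3 also changed by at least 1.5-fold, as did 4.87% of all tested genes (2.47% higher, 2.39% lower) and 2.3% of those with at least 10 CPM. In 7 of the 10 genes, the 6 called and Max, the libraries of the groups did not overlap, against 38.9% of all tested genes and 47.9% of those with at least 10 CPM. The median log2FC (log2 fold change of IL-33 over control) was 0.12 for the 10 genes and -0.0006 for all genes tested.

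**Figure D1:**
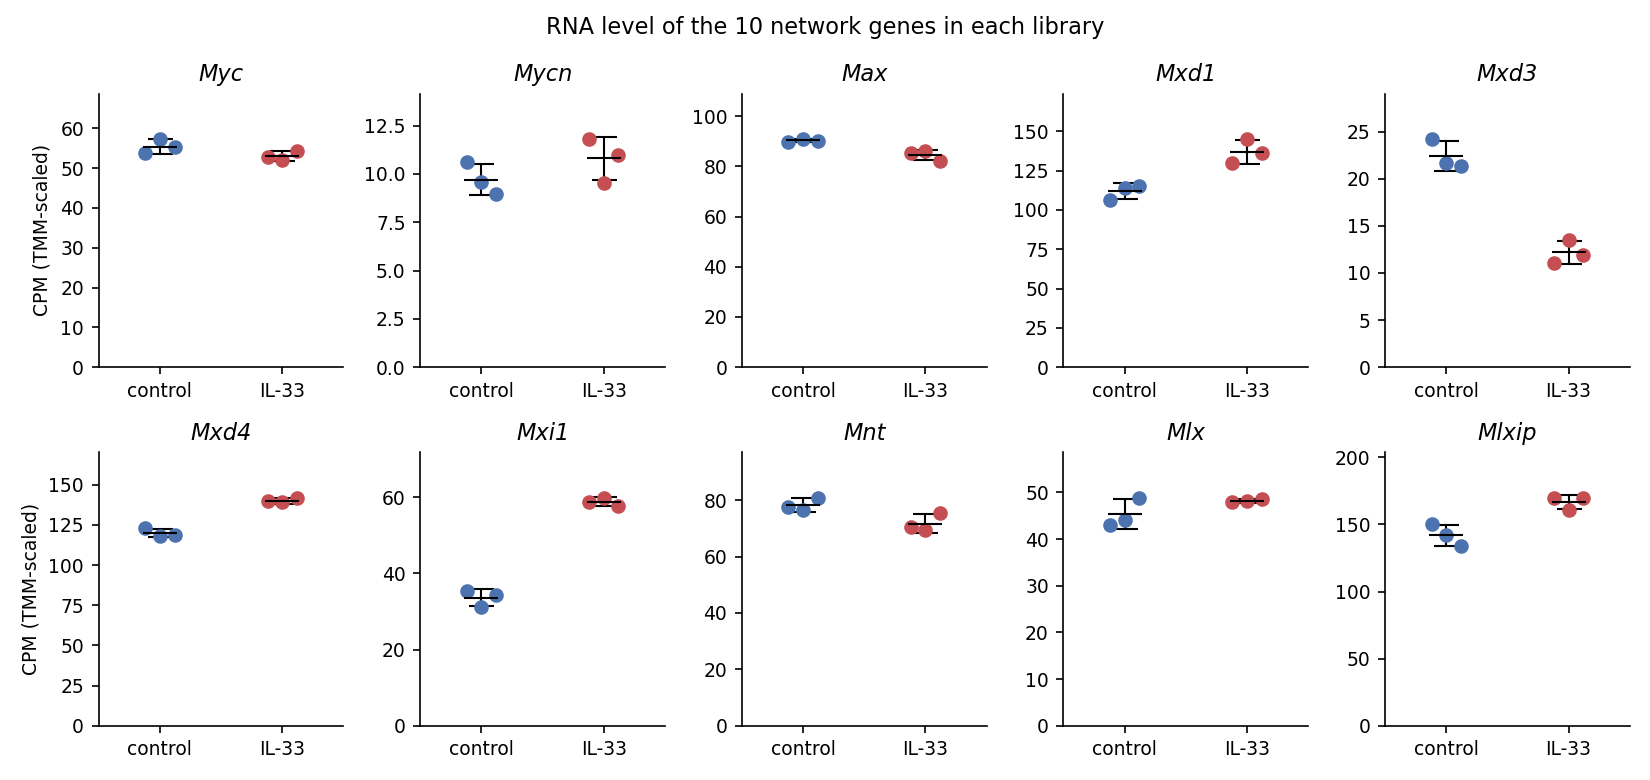
CPM (TMM-scaled, vertical axis from 0, with its own scale in each panel) of the 10 network genes in the 3 control (blue) and 3 IL-33 (red) libraries, each point a library, with the mean and SD (n = 3) in black. The libraries with IL-33 lie above all control libraries for Mxi1, Mxd1, Mxd4 and Mlxip, below all of them for Mxd3, Mnt and Max, and overlap with them for Myc, Mycn and Mlx.

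Myc (ENSMUSG00000022346), the activator of the network, lies on chromosome 15 from 61985391 to 61990374 on the plus strand (GENCODE M21 on GRCm38, as for every position below that names no other source). It had 1139, 1164 and 1211 counts in the control libraries and 1137, 1092 and 1209 with IL-33. These are 53.7, 57.3 and 55.3 CPM against 52.9, 52.1 and 54.4 CPM, ranges that overlap. The log2FC was -0.06 (SE 0.0534, edgeR adjusted p = 0.445), and the 95% interval from -0.17 to 0.05 is a fold change of 0.891 to 1.03. A change of Myc RNA beyond that interval was not seen at 48 h, which does not show that the groups were equal. Mycn (ENSMUSG00000037169, chromosome 12 from 12936093 to 12941914, minus strand), a paralog best known from neuroblastoma and from progenitor cells, was at 10.6, 9.6 and 8.94 CPM in control libraries and 11.8, 9.54 and 11 CPM with IL-33. With only 195 to 253 counts in a library its interval was wide, from -0.09 to 0.39 around a log2FC of 0.15 (edgeR adjusted p = 0.39).

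Max (ENSMUSG00000059436, chromosome 12 from 76937269 to 76962201, minus strand) encodes the partner that MYC, MXD and MNT proteins all need. Its levels were 89.9, 90.9 and 90.2 CPM in control libraries and 85.5, 86.1 and 82.3 CPM with IL-33. All 3 libraries with IL-33 were thus below all 3 without it, and the spread between control libraries was the smallest of the 10 genes, with an SD of 0.57% of the mean. The log2FC of -0.09 (SE 0.042) had an unadjusted p of 0.0278 and an adjusted p of 0.0866 in edgeR, which did not pass. The interval of Max ran from -0.18 to -0.01, that is, down to 0.884 of the control level.

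Among the MXD genes the largest rise was in Mxi1 (ENSMUSG00000025025, chromosome 19 from 53310518 to 53375810, plus strand), also named Mxd2, which encodes a repressor that binds MAX and SIN3. The control libraries had 752, 632 and 749 counts and those with IL-33 had 1265, 1256 and 1280, or 35.4, 31.1 and 34.2 CPM against 58.8, 59.9 and 57.6 CPM. Even the lowest library with IL-33 was well above the highest control library. Mxi1 rose from 33.6 ± 2.23 to 58.8 ± 1.15 CPM (SD, n = 3), a log2FC of 0.81 (SE 0.0592, edgeR adjusted p = 3.0e-22). RefSeq gives Mxi1 starts in 3 windows, and counts per gene do not tell which of the starts was used.

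Mxd1 (ENSMUSG00000001156, chromosome 6 from 86647042 to 86669161, minus strand), also known as Mad1, is the founding repressor of the family and marks differentiating cells. It was at 106, 114 and 115 CPM in control libraries and at 130, 145 and 136 CPM with IL-33. It rose by a log2FC of 0.29 (SE 0.0405, edgeR adjusted p = 4.1e-09), or 22.4%. Mxd4 (ENSMUSG00000037235, chromosome 5 from 34173883 to 34187720, minus strand), a further MAX-binding repressor, went from 123, 118 and 119 CPM to 140, 139 and 142 CPM. Its log2FC was 0.22 (SE 0.0384, edgeR adjusted p = 9.24e-07). In Mxd1 and Mxd4 no control library reached the lowest library with IL-33, with rises of less than 1.5-fold. The interval of Mxi1, from 0.69 to 0.92, lay wholly above those of Mxd1, from 0.21 to 0.37, and Mxd4, from 0.15 to 0.3, and the difference between the genes was not tested.

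Mxd3 (ENSMUSG00000021485, chromosome 13 from 55325168 to 55329823, minus strand) went the other way from the rest of its family. It is known as the MXD gene that is expressed in cycling cells, around S phase. The control libraries had 514, 441 and 467 counts and those with IL-33 had 239, 283 and 264, or 24.2, 21.7 and 21.3 CPM against 11.1, 13.5 and 11.9 CPM. Every library with IL-33 was far below every control library. Mxd3 fell from 22.4 ± 1.58 to 12.2 ± 1.22 CPM (SD, n = 3), a log2FC of -0.88 (95% interval -1.07 to -0.69, edgeR adjusted p = 2.95e-13), which is 0.543 of the control level. Beside it, a list of 10 proliferation markers, with Mki67 and Top2a among them, summed to 1970 to 2200 CPM without IL-33 and 1430 to 1470 CPM with it. All 10 fell, where 13.9% of all tested genes did, with a median log2FC of -0.52 and single values from -0.63 to -0.32. Mki67 was at -0.54 and Birc5, the gene of Survivin, at -0.47. The paper reports the opposite direction for protein, with more Ki67 and more Survivin by flow cytometry after IL-33. It also reports more BrdU uptake in vivo and, in human DNT cells, more Survivin mRNA. From its RNA sequencing it gives an increase of a leukocyte proliferation gene set, and cell division among the terms enriched in changed genes. The RNA values given here do not measure protein or the rate of division. The part of the fall of the 10 markers in that of Mxd3 was not tested. The exons of Mxd3 share 105 bases, 4.43% of their length, with Prelid1 on the other strand. Prelid1 was at a far higher level and rose from 419 ± 3.62 to 484 ± 14.3 CPM (SD, n = 3). Its log2FC of 0.21 (edgeR adjusted p = 1.37e-09) is opposite in direction to that of Mxd3. How strand was handled in counting is not stated, and the part of Prelid1 reads in the counts of Mxd3 was not tested. The level of Mxd3 and the size of its fall are thus uncertain.

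Mnt (ENSMUSG00000000282, chromosome 11 from 74830920 to 74845725, plus strand) encodes a MAX-binding repressor that is present in most cells, resting or cycling. It was at 77.5, 76.4 and 80.9 CPM in control libraries and 70.3, 69.4 and 75.5 CPM with IL-33. The highest library with IL-33 was just under the lowest control library. The log2FC was -0.13 (SE 0.0449, edgeR adjusted p = 0.0256), the smallest called in the network, and the call rested on the test and on single libraries. Its adjusted p was 0.0969 in DESeq2, 0.141 without control replicate 3, 0.131 without IL-33 replicate 1 and 0.148 without IL-33 replicate 2.

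In the MondoA arm Mlxip (ENSMUSG00000038342, chromosome 5 from 123394798 to 123457932, plus strand) was at 150, 142 and 134 CPM in control libraries and 170, 161 and 170 CPM with IL-33, with no overlap. Mlxip rose from 142 ± 7.89 to 167 ± 5.3 CPM (SD, n = 3), a log2FC of 0.23 (SE 0.0382, edgeR adjusted p = 4.86e-07). Its partner Mlx (ENSMUSG00000017801, chromosome 11 from 101087277 to 101092207, plus strand) was at 43.0, 44.1 and 48.9 CPM against 47.9, 48.1 and 48.7 CPM, and control replicate 3 was above all libraries with IL-33. The log2FC of Mlx was 0.09 (95% interval -0.03 to 0.2, edgeR adjusted p = 0.274). Mlx shares 385 bases, 19.3% of its exon length, with Psmc3ip on the other strand, which fell from 7.97 ± 0.613 to 4.91 ± 1.22 CPM (SD, n = 3). How strand was handled in counting is not stated, so the level of Mlx is uncertain. The overlaps of Mxd4, Mxi1 and Mlxip with genes on the other strand were 514, 194 and 267 bases, at most 6.06% of their exons. The gene over Mlxip, Gm15747, had at most 4 counts in a library, and those over Mxd4 and Mxi1 were not listed.

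**Figure D2:**
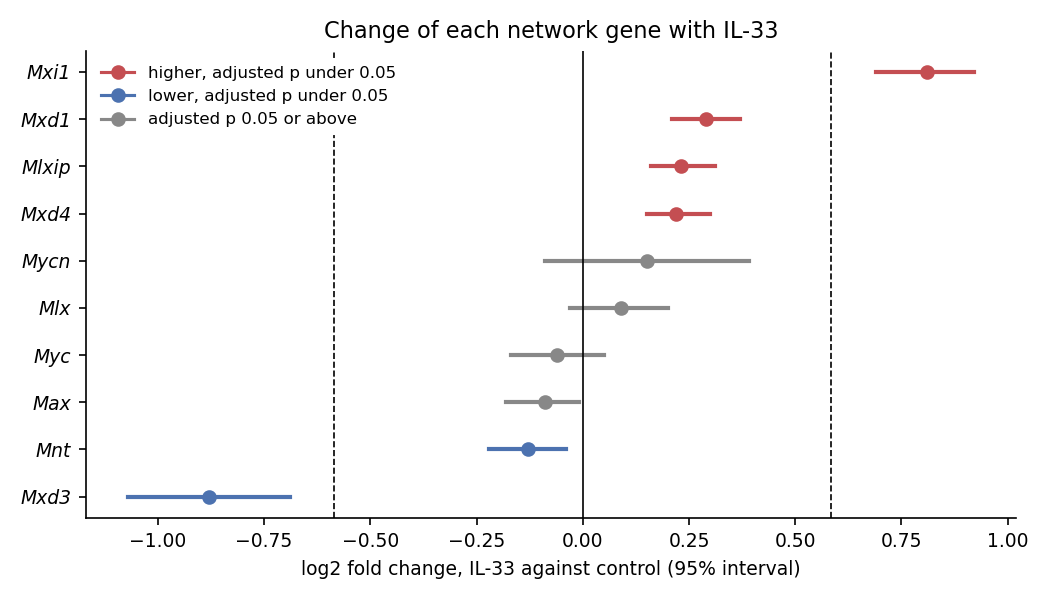
Log2 fold change (IL-33 against control, horizontal axis) of each network gene with its 95% interval from edgeR, in order of size, red for higher and blue for lower with an adjusted p under 0.05, grey for the rest. Dashed lines mark a fold change of 1.5 in both directions, and only the intervals of Mxi1 (0.69 to 0.92) and Mxd3 (-1.07 to -0.69) lie wholly beyond them.

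The levels of the 10 genes could be set beside each other per length, as CPM per kb of exon (all exons of a gene merged). In control libraries Max was highest at 25.1 CPM per kb, followed by Mlx at 22.7 and Myc at 20.4 CPM per kb. Mlxip at 17.1 and Mnt at 16.9 CPM per kb came next, and their libraries overlapped. Below them stood Mxd1 at 15.8, Mxd4 at 14.2, Mxd3 at 9.46, Mxi1 at 4.92 and Mycn at 2.94 CPM per kb, all with ranges that did not overlap with the next. Mycn thus had the lowest level of the 10 genes per kb.
With IL-33 that order changed at both ends. Mlx, at 24.1 CPM per kb, was above Max, at 23.5 CPM per kb, with no overlap, whereas with the longest transcript Max was highest in both groups. Mxi1, at 8.61 CPM per kb, was now above Mxd3, at 5.13 CPM per kb, where without IL-33 it had been below it, in every library of each group. Mxd1 at 19.4 CPM per kb overlapped with Myc at 19.6, and Myc with Mlxip, whose libraries were at 19.3 to 20.4 CPM per kb. Mxd4, at 16.6 CPM per kb, passed Mnt at 15.5. The upper and middle order depends on the length used. With the longest transcript in place of all exons 4 of the 10 genes kept their rank in control libraries, Mxd4 and Mxd1 stood next to Max, and Mxi1 and Mxd3 still changed places, from 6.67 and 12.9 to 11.7 and 6.98 CPM per kb.

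The repressor messages changed in their sum and in their make-up. The summed level of Mxd1, Mxd3, Mxd4, Mxi1 and Mnt was 61.7, 60.3 and 61.9 CPM per kb in control libraries and 63.4, 66.3 and 65.7 CPM per kb with IL-33, and that of Myc and Mycn was 23.0, 24.0 and 23.1 against 23.0, 22.1 and 23.4 CPM per kb. Mxd3 made up 15.4 ± 1.04% of the repressor sum in control libraries and 7.87 ± 0.634% in those with IL-33 (SD, n = 3). The share of Mxi1 went from 8.03 ± 0.436% to 13.2 ± 0.373%. Mxd1 went from 25.8 to 29.7%, Mxd4 from 23.1 to 25.4% and Mnt from 27.6 to 23.8% of the sum. Without division by length the sum was 366 ± 4.71 CPM in control libraries and 420 ± 8.35 CPM with IL-33 (SD, n = 3), a ratio of 1.15 against 1.06 per kb. On that scale the share of Mxd4 was 32.8 and 33.4% with overlapping libraries, while Mxd3 went from 6.12 to 2.89% and Mxi1 from 9.16 to 14%. Shares sum to the whole, so they are not independent of each other, and they were not tested.
The ratio of Myc and Mycn to the repressors was 0.372, 0.398 and 0.373 in control libraries and 0.363, 0.333 and 0.355 with IL-33, a mean with IL-33 of 0.92 of the control mean. The ratio of Max to the sum of all its partners among the 10 genes was 0.295, 0.3 and 0.295 in control libraries and 0.275, 0.271 and 0.257 with IL-33. In both ratios the groups did not overlap. The ratio of Mlxip to Mlx was 0.757 ± 0.0901 and 0.83 ± 0.0244 (SD, n = 3), with overlap. These are ratios of RNA, and say nothing of protein or of the pairs that form.

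**Figure D3:**
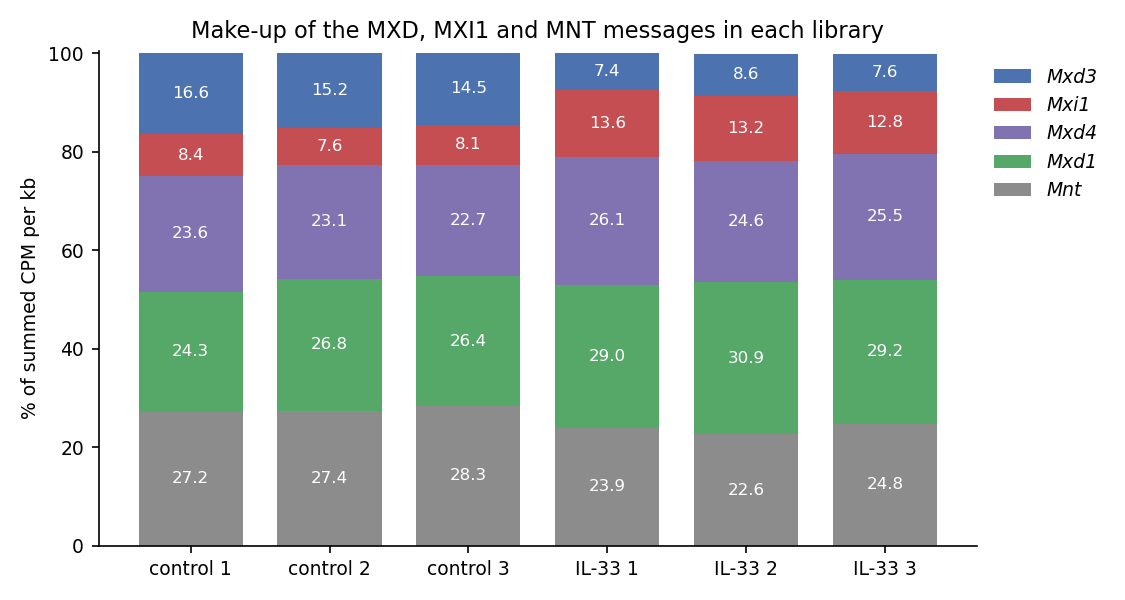
Share (%, vertical axis) of each of the 5 repressor genes in their summed CPM per kb of exon, 1 bar for each library. With IL-33 the segment of Mxd3 shrinks from between 14.5 and 16.6% to between 7.39 and 8.59%, and that of Mxi1 grows from between 7.56 and 8.42% to between 12.8 and 13.6%.

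Of the network genes outside these 10, Mga, a large MAX-binding factor of the repressive PRC1.6 complex, was at 153 ± 2.49 CPM and 151 ± 4.67 CPM (SD, n = 3) with an adjusted p of 0.674 in edgeR. Mycl had 1 to 15 counts and Mlxipl, the glucose-sensing paralog of MondoA known from liver, 0 to 9 counts in a library, and both were under the filter. Among 14 genes of cofactors that work with MYC 1 rose and 4 fell, with a median log2FC of -0.06. As 27.5% of all tested genes were called, 5 of 14 is near that share. Kat2a, a histone acetyltransferase, fell by 0.27 on the log2 scale, Ep400, a chromatin remodeller, by 0.14 and Actl6a, an actin-like subunit of remodelling complexes, by 0.19. Without IL-33 replicate 2 the adjusted p of Actl6a was 0.0527. The calls of Cdk9, which rose, and Trrap, which fell, both by at most 0.1 on the log2 scale and with adjusted p values of 0.0483 and 0.0476, were lost in 9 of 12 alternative fits. Of the corepressor genes Sin3a, Sin3b, Hdac1, Hdac2 and Ncor1, only Ncor1 was called, with a log2FC of 0.08 (edgeR adjusted p = 0.0179), and it went above 0.05 without replicate 2 of the control or replicate 2 or 3 of IL-33, to at most 0.175. The log2FC values of Sin3a, Sin3b, Hdac1 and Hdac2 lay between -0.08 and 0.01.

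Of 13 genes that act on the stability of the MYC protein 2 rose and 3 fell, where 13.6% of all tested genes rose and 13.9% fell, with a median log2FC of -0.03. Most genes of the list had a mean of at least 10 CPM, and of all genes at that level 37.1% were called in either direction. The number called in the list is near that share. Fbxw7, the F-box protein that marks MYC for degradation, rose from 33.9 ± 0.867 to 40.9 ± 1.14 CPM (SD, n = 3), a log2FC of 0.27 (edgeR adjusted p = 4.35e-04), and Ppp2r5a, a regulatory subunit of the phosphatase PP2A, by 0.09. Cip2a, an inhibitor of PP2A that protects MYC, fell from 63.1 ± 3.99 to 45.0 ± 2.91 CPM (SD, n = 3), a log2FC of -0.49 (edgeR adjusted p = 2.57e-12). Aurka, a mitotic kinase that also binds MYC proteins, fell by 0.27 and Skp2, a further F-box protein, by 0.7 on the log2 scale. Cip2a, Aurka and Skp2 are also genes of dividing cells, and moved beside the proliferation markers given above. Without IL-33 replicate 3 the adjusted p of Skp2 went above 0.05, as it did without control replicate 1 and in DESeq2, to at most 0.184. The call of Ppp2r5a was lost without control replicate 3 or IL-33 replicate 3, to at most 0.114.

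A list of 57 genes widely used as MYC targets, of which 55 were tested, had 5 genes that rose and 16 that fell, against 13.6% and 13.9% of all genes tested, and a median log2FC of -0.09. Most genes of the list had a mean of at least 10 CPM, and of all genes at that level 37.1% were called in either direction. Over the 12 alternative fits 5 or 6 rose and 14 to 16 fell. The list holds genes of the cell cycle and genes of the nucleolus. Mcm5 and Mcm4, subunits of the replicative helicase, fell by 0.56 and 0.39 on the log2 scale, the uracil glycosylase Ung by 1.04 and the mitotic kinase Plk1 by 0.43, while Cbx3, a heterochromatin protein, fell by 0.24. Npm1, the nucleolar chaperone nucleophosmin, rose from 564 ± 9.64 to 714 ± 10.7 CPM (SD, n = 3), a log2FC of 0.34 (edgeR adjusted p = 5.77e-21), and the mitochondrial chaperonins Hspe1 and Hspd1 rose by 0.37 and 0.16. Among genes of the nucleolus and of ribosome making, Tcof1, Utp20, Nolc1, Ppan, Nop56, Gnl3, Bysl and Rcl1 fell, with log2FC values from -0.34 to -0.17. These 8 were named after their values had been seen. The calls of Bysl, Gnl3 and Rcl1 held in 8, 10 and 11 of the 12 alternative fits. Other genes of the nucleolus and of ribosome making did not pass the test, such as Nop2 at -0.08, Ddx18 at -0.04, Pes1 at 0.04 and Rrp9 at 0.16. Nor did Nop16, Nip7, Imp4, Noc4l, Rrp12, Mrto4, Las1l, Wdr43, Mphosph10, Grwd1 and Mybbp1a. Of the 55 genes tested in the whole list 34 were not called. Hk2, hexokinase 2, was the 1 gene of the list that rose past both thresholds, by 0.72 from 55.8 ± 7.69 to 92.2 ± 3.7 CPM (SD, n = 3), and was named after its value had been seen. Genes that fell and genes that rose thus stood side by side in the list, and Mcm5, Mcm4 and Plk1 moved beside the proliferation markers, whose part was not tested. The E-box CACGTG was in the promoter windows of 15 of the 52 genes of this list with a window, or 28.8%, against 8.09% of all genes.

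Of 5 genes that MYC is known to repress 4 were tested. The 3 called all rose, as did 13.6% of all tested genes, and code for inhibitors of cyclin-dependent kinases. The median log2FC of the 4 genes was 0.31. Cdkn1a, which encodes p21, went from 303, 300 and 311 CPM to 399, 413 and 392 CPM, with no overlap and a log2FC of 0.4 (SE 0.03, edgeR adjusted p = 1.83e-21). Cdkn2b, which encodes p15, went from 12.8, 14.3 and 12.3 CPM to 20.8, 23.9 and 18.0 CPM, a log2FC of 0.67 (edgeR adjusted p = 2.1e-08). Cdkn1b, which encodes p27, rose by 0.16. Gadd45a, a stress-induced growth arrest gene, was at 1.75 ± 0.221 and 2.03 ± 0.587 CPM (SD, n = 3) with an adjusted p of 0.602. The calls of the 3 genes held in all 12 alternative fits.

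The pair of best known MondoA targets moved in opposite directions. Txnip, which encodes an inhibitor of thioredoxin and of glucose uptake, went from 598, 634 and 591 CPM to 710, 735 and 708 CPM with IL-33, a log2FC of 0.24 (SE 0.0267, edgeR adjusted p = 8.14e-13). Arrdc4, its arrestin-like relative, went from 27.2, 31.2 and 33.4 CPM to 25.8, 25.9 and 27.0 CPM, a log2FC of -0.22 (edgeR adjusted p = 0.0139). In Arrdc4 the groups came close, with 27.2 CPM in the lowest control library and 27.0 CPM in the highest with IL-33, and the call was lost in DESeq2 and without control replicate 2, control replicate 3 or IL-33 replicate 1, with adjusted p values of up to 0.17. The stretches below are shown because they hold the E-box letters that these targets carry. In the Txnip promoter (GRCm38.p6, chr3:96557852-96557908, plus strand) the capitals mark a paired E-box-like motif, CACGNG and again CACGNG with 5 bases between them, searched on both strands, 85 bases before the start. In that of Arrdc4 (chr7:68749406-68749451, minus strand) the capitals mark CACGTG, 193 bases before the start.
Txnip: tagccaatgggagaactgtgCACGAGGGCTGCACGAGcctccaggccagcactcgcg
Arrdc4: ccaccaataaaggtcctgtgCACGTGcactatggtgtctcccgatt
The paired motif was in 0.0555% of the genes with a window, and in none of the windows of the network genes. No match was found for it in the window of Arrdc4.

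**Figure D4:**
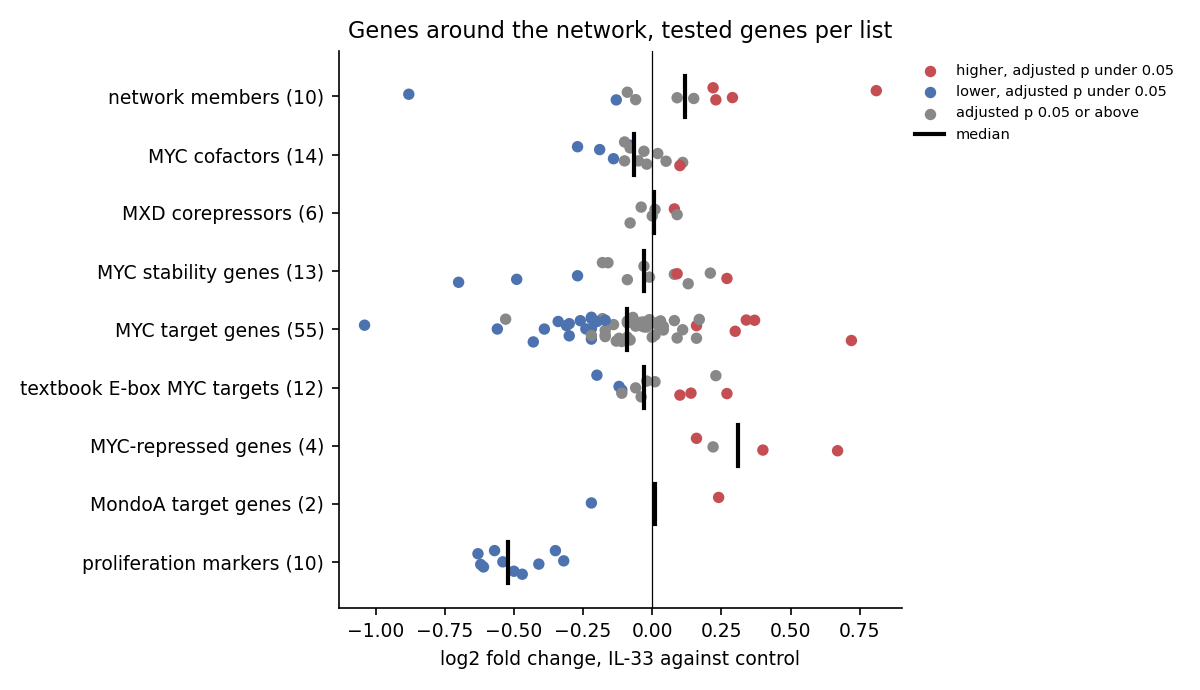
Log2 fold change (IL-33 against control, horizontal axis) of each tested gene of the lists around the network, 1 point a gene, red for higher and blue for lower with an adjusted p under 0.05 and grey for the rest. The black bar is the median, at 0.12 for the network members, -0.09 for the MYC target genes, 0.31 for the MYC-repressed genes and -0.52 for the proliferation markers, and the number tested is in parentheses.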

How the data were processed

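RNA of DNT cells was sequenced in 3 control and 3 IL-33 libraries, grouped by their labels. The authors deposited raw counts per gene and library, without normalization, and 1 column of signal named like DESeq2's mean of normalized counts, which was not used. The submitters' processing notes name Bowtie 0.12.2 and mm8. For the counting program, its annotation and its use of strand, nothing is given in the sources used here. The labels name a TruSeq kit and the paper a NEBNext Ultra kit. Genes were filtered with filterByExpr (minimum count 10, minimum total 15), scaled by TMM and tested in edgeR by quasi-likelihood (robust, two-sided, no covariates), adjusted over all 14671 genes. The thresholds of 0.05 and 1.5-fold follow the study. Errors (SE) and 95% intervals are those of this fit, and a gene is called at an adjusted p under 0.05. Positions and exon lengths are from GENCODE M21 (GRCm38), matched by identifier, so no coordinates of the authors' build are given. Promoter sequences are RefSeq's.

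All 10 members are named. Naming from a list was planned for at most 8 genes, those with the smallest adjusted p in each direction, and was not always kept to. In the MYC target list the 8 genes of the nucleolus and of ribosome making that fell, and Hk2, were added after their values had been seen. Some genes of that list with a smaller adjusted p, such as Cdk4, are not named there. The genes of the nucleolus and of ribosome making named as not passing were also added after their values had been seen. The members and lists were chosen with earlier results of these data known, and the MYC target list was written out by hand. Alternatives were DESeq2, limma-voom, DESeq2 size factors, no or a stricter filter on low counts, leaving out each library, a replicate block, and other lengths. On simulated counts all 3 tools were tested. Work was done in R 4.3.3 with DESeq2 1.42.0, limma 3.58.1 and edgeR 4.0.16. Replicate pairs differed by more than sampling noise (chi-square per gene 2.64 to 3.67 over genes with at least 20 counts).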

Additional observations from a re-analysis of the deposited data

How the results depend on the processing

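In each of the 12 alternative fits Mxi1, Mxd1, Mxd4 and Mlxip were higher and Mxd3 lower with an adjusted p under 0.05, and Myc, Mycn, Max and Mlx did not pass. Mnt was lower with an adjusted p under 0.05 in 8 of the 12 fits. Of the 10 genes 5 or 6 were called in every fit. The genes called of all tested ranged from 3366 to 3664 with 1 library left out. Deviations of same-numbered libraries from their group means correlated at 0.047, -0.086 and 0.043 over 8839 genes. With 3 libraries in a group this cannot tell whether the replicate number pairs the samples, which no source used here states. With the replicate number as a block 3798 genes in all and 6 of the 10 were called. Without division by length the ratio of Myc and Mycn to the repressors with IL-33 was 0.856 of that in control libraries, against 0.92 per kb and 0.902 with the longest transcript, a length chosen for it after seeing the data. With the longest transcript 4 of 10 genes kept their rank. Depth limits Mycn most, and Mycl and Mlxipl could not be tested.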

Other observations

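A shorter list of 12 textbook E-box targets of MYC, some of them shared in function with the genes above, was not one-sided either. Ldha, the lactate dehydrogenase that ends glycolysis, rose from 1280 ± 36.3 to 1550 ± 20.4 CPM (SD, n = 3), or by 0.27 on the log2 scale (edgeR adjusted p = 6.71e-19). Ncl, the nucleolar protein nucleolin, rose by 0.1 and Ccnd2, a D-type cyclin, by 0.14 on the log2 scale. Cad, the first enzyme of pyrimidine synthesis, fell by 0.11, Cdc25a, a phosphatase that activates cyclin-dependent kinases, by 0.2 and Shmt2, a mitochondrial enzyme of one-carbon metabolism, by 0.12. With 3 of 12 higher and 3 of 12 lower, the counts stood beside 13.6% and 13.9% of all tested genes. Among genes with a mean of at least 10 CPM the share called in either direction was 37.1%. The falls rested on the fit, since over the alternatives 0 to 3 of these genes were called lower, with 0 without IL-33 replicate 3, while the same number, 3, was called higher in each. The other 6 genes did not pass. The median of the list was -0.03, with a range of -0.09 to 0.01 over the alternatives, and was positive without control replicate 2.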
